A study of Mus musculus with 11 samples.

Results

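The MHC class I genes measured here were B2m, H2-K1, H2-D1, H2-Q1, H2-Q2, H2-Q6, H2-T3, H2-T23 and H2-M3. They were taken by symbol from a list of 10 class I genes, of which 9 stood in the deposited table of 11366 genes, and Cd1d1 was not analysed here. The values came from 11 bulk RNA-seq libraries of wild-type mouse small-intestinal epithelial cells, sorted live as EpCAM-positive and as negative for CD45, CD31 and CD44. SFB mice (n = 4) received standard chow and were colonized with SFB, read here as segmented filamentous bacteria, commensals that attach to the ileal epithelium. NFF mice (n = 4) received a diet low in fermentable fiber, and Control mice (n = 3) received standard chow with no treatment. SFB against Control asks about colonization and NFF against Control about diet, while SFB against NFF differs in both. No label gives an age, or says that each library is another mouse, so p-values here speak only for the variation from library to library, which could be technical.

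A class I molecule is a heavy chain bound to beta-2 microglobulin, the light chain that B2m encodes, and it holds a short peptide for recognition by T cells. H2-K1 and H2-D1 are classical heavy chain genes, whose products present peptides from inside the cell to CD8 T cells. The nonclassical genes lie in the Q, T and M regions of mouse chromosome 17: H2-T23 encodes Qa-1, a ligand of the NK receptor CD94/NKG2A, H2-T3 encodes the thymus leukemia antigen, which small-intestinal epithelium carries and which binds CD8 alpha homodimers on intraepithelial lymphocytes, and H2-M3 presents N-formylated peptides of bacteria. H2-Q6 belongs to the group of Qa-2 genes. Interferon, NF-kappaB and the transactivator NLRC5 are known to raise class I transcription.

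In GRCm38 coordinates of GENCODE M21, B2m lies at chr2:122147686-122153083 on the plus strand, and the 8 heavy chain genes lie on chromosome 17. H2-K1 is at chr17:33996017-34000347 (minus strand), H2-D1 at chr17:35262730-35267499, H2-Q1 at chr17:35320405-35325099, H2-Q2 at chr17:35342242-35346762 and H2-Q6 at chr17:35424850-35430055 (all plus). H2-T23 is at chr17:36029773-36032855 and H2-T3 at chr17:36185572-36190287 (both minus), and H2-M3 is at chr17:37270220-37274484 (plus).

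The heavy chains are paralogs, which bears on every value below, since the authors' counting could have moved reads between them. The first 60 bases of exon 2, which encodes the alpha 1 domain, are shown from the GENCODE M21 transcripts for genes whose values are compared below. Capitals mark bases that differ from H2-K1 at the same position of the exon.
H2-K1: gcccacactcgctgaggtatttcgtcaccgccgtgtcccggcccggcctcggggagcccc
H2-D1: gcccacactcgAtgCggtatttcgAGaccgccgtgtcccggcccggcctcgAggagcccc
H2-Q2: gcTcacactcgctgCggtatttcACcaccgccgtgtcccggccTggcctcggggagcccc
H2-Q6: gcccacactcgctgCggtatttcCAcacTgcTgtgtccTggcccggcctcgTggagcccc
H2-Q7: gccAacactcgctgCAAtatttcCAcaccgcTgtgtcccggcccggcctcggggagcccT
H2-T23: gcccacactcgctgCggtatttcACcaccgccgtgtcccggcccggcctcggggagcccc
H2-T3: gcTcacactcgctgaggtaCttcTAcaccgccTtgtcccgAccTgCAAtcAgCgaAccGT
These stretches are chr17:33999944-34000003 (minus) for H2-K1, chr17:35263379-35263438 for H2-D1, chr17:35342600-35342659 for H2-Q2, chr17:35425108-35425167 for H2-Q6 and chr17:35439452-35439511 for H2-Q7 (all plus), chr17:36032363-36032422 for H2-T23 and chr17:36189811-36189870 for H2-T3 (both minus). Over the 270 bases of exon 2, H2-K1 matched H2-D1 at 91.1% of positions, H2-Q6 at 88.1%, H2-T23 at 86.7%, H2-T3 at 73.7% and H2-M3 at 69.6%. H2-Q6 matched H2-Q7, a neighbour not analysed here, at 93.0%.

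The share of sequence that could not be assigned to 1 gene differed among them. Of the distinct 50-base words of H2-Q6 transcripts, 35% also occurred in another gene's transcripts, chiefly those of H2-Q7 and H2-Q4. The share was 16.1% for H2-Q2, 15.0% for H2-Q1, 14.5% for H2-T23, 12.8% for H2-D1 and 9.63% for H2-K1. It was 0.926% for H2-T3, 0.576% for H2-M3 and 0 for B2m. H2-Q6 was therefore the least, and B2m, H2-M3 and H2-T3 the most, separable of the genes at this word length, and at 100 bases the share for H2-Q6 was 13%. H2-Q9 and H2-L, which the deposited values include, had no GENCODE M21 gene by these symbols. Words shared with them under these symbols were not counted, so the shares could be higher.

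The known promoter elements of class I genes are shown because class I transcription is known to run through them. Among the 9 genes, 8 had a promoter entry in the RefSeq table of GRCm38.p6, and H2-Q1 is named only. The 250 bases before each start were searched on both strands for GGGATTCCC, of an NF-kappaB site of the class I enhancer A, AAGTGAAAC, an interferon response element of class I genes, GAAANNGAA, of the core of interferon-stimulated response elements, TGACG, the core of the X2 box, and ATTGG, the inverted CCAAT of the Y box. No 2 matches overlapped. The 30 bases ending with the interferon response element, which reads GTTTCACTT on the gene's strand, follow for the 5 genes that hold it, with matches to the searched letters in capitals.
H2-K1: tgGGGATTCCCcatctccacaGTTTCACTT
H2-D1: tgGGGATTCCCcatctcctcaGTTTCACTT
H2-Q6: tgGGGATTCCCcatctccccaGTTTCACTT
H2-T3: gttgggctgtacagaactataGTTTCACTT
H2-M3: gattcccccatttcctctgagGTTTCACTT
They lie at chr17:34000430-34000459 (minus), chr17:35262922-35262951 (plus), chr17:35424676-35424705 (plus), chr17:36190270-36190299 (minus) and chr17:37270111-37270140 (plus), in that order. AAGTGAAAC was in 0.338% of the 32851 promoter entries. GGGATTCCC, in 0.301% of entries, was found in H2-K1, H2-D1 and H2-Q6, and in H2-T3 and H2-M3 these letters were not in the window. The windows follow the RefSeq starts, and by GENCODE M21 all 250 bases of the H2-D1 window, 136 of that of H2-T3, 154 of that of H2-T23 and 65 of that of H2-Q2 lie in annotated exons. The H2-D1 stretch shown therefore lies inside the annotated gene, and that of H2-T3 lies partly inside it.

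Whole windows, less any bases in annotated exons, are shown for H2-Q6, which had the largest difference of the 9 between groups, for H2-K1 as a classical gene, for H2-Q2, which shares neither element with them, and for B2m. Capitals again mark matches to the searched letters.
H2-Q6: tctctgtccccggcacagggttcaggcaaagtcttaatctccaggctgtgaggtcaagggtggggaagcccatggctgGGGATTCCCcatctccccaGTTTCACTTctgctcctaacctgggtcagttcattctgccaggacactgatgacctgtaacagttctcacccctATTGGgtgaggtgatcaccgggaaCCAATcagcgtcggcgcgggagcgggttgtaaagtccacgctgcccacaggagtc
H2-K1: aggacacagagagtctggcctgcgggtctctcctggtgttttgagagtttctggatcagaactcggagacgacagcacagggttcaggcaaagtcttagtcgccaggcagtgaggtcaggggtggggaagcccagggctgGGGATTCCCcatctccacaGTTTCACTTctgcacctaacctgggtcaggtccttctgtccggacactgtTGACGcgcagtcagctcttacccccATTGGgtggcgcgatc
H2-Q2: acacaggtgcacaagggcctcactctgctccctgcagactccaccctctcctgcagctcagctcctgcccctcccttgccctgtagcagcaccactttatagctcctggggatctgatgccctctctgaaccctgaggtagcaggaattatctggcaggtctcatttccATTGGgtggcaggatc
B2m: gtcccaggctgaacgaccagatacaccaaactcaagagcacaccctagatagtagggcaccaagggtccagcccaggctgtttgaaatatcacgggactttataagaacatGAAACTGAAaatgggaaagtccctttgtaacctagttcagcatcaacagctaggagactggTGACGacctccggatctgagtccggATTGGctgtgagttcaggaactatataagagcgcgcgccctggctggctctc
The windows are chr17:35424600-35424849 (plus) for H2-Q6, chr17:34000348-34000597 (minus) for H2-K1, chr17:35342057-35342241 (plus) for H2-Q2 and chr2:122147437-122147685 (plus) for B2m. GAAANNGAA was found in B2m and H2-T23 and in 7.13% of all entries. TGACG was found in 4 of the 8 genes (B2m, H2-K1, H2-D1 and H2-M3) against 17.8% of entries, and ATTGG in 7 of the 8, all but H2-T3, against 33.8% of entries. A match is a description of letters and not a measured site.

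The libraries held epithelial cells by their markers. All 8 epithelial markers were present, with sums of 5800 to 7600 RPKM in SFB, 6710 to 7160 in NFF and 6200 to 7220 in Control. RPKM is a read number scaled by gene length and by the library's total, and RPKM sums were 237248 to 302661 per library; read depth is unknown. Of 14 listed T cell and intraepithelial lymphocyte markers, Ptprc and Itgae were in the table, with summed levels of 1.11 to 4.55 RPKM in SFB, 2.30 to 3.86 in NFF and 1.34 to 2.89 in Control. The other 12 were not analysed here, and neither were the 7 endothelial and stromal markers. SFB 4, SFB 2 and Control 2 lay farthest from their group means, at root mean square distances of 0.434, 0.377 and 0.349 on the log2 scale. Control 2 had the lowest mean log2 level of distal small-intestine markers (4.36, against 5.94 to 7.76 in SFB, 7.53 to 7.67 in NFF and 6.95 and 7.32 in the other Control libraries) and the highest of proximal ones (4.11, against 2.83 to 3.55 elsewhere). Only 5 of the 8 listed proximal markers were in the table. Ada, Gata4, Onecut2 and S100g were highest in Control 2, Ada by far at 180 RPKM, whereas Slc40a1 was lowest there, at 2.37 RPKM. The mean log2 level of 12 dividing-cell markers was 2.44 to 4.45 in SFB, highest in SFB 4, against 1.64 to 2.24 in NFF and 1.87 to 3.49 in Control, so that all SFB libraries lay above all NFF libraries. Of 10 secretory lineage markers, all in the table, the sums were 3030 to 6820 RPKM in SFB, 5940 to 9780 in NFF and 7240 to 11600 in Control. Among them the tuft cell marker Trpm5 stood at 0.727 to 5.24 RPKM in SFB, below its 14.2 to 24.6 in NFF and 6.50 to 15.7 in Control, and Dclk1, another, at 0.296 to 1.58 in SFB, below its 4.12 to 6.76 in NFF and 2.33 to 4.61 in Control. Of 8 myeloid markers Lyz2 and Itgam were in the table, with sums of 6.8 to 24.8 RPKM in SFB, 19.9 to 31.9 in NFF and 24.6 to 52.4 in Control, and Itgam alone was higher in SFB, at 5.47 to 12.7 RPKM against 1.12 to 3.48 in NFF and 1.79 to 5.19 in Control. The part of these shifts in the differences of SFB from NFF and Control below was not tested.

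B2m was the most abundant of the genes in every library. It stood at 1442, 1671, 1238 and 859 RPKM in SFB 1 to 4, at 1044, 762, 915 and 929 RPKM in NFF 1 to 4, and at 1224, 916 and 948 RPKM in Control 2, 4 and 5. SFB 1, 2 and 3 lay above all NFF and Control libraries, whereas SFB 4 lay inside their range, so the groups overlapped. Means were 1303 ± 344 RPKM in SFB, 913 ± 115 in NFF and 1029 ± 169 in Control (SD, n = 4, 4 and 3). The log2 difference, on the scale of log2(RPKM + 1) used throughout, was 0.48 ± 0.24 (SE) for SFB against NFF (limma, Benjamini-Hochberg adjusted p = 0.229, 95% interval -0.04 to 1.00). It was 0.31 for SFB against Control (adjusted p = 0.686, interval -0.25 to 0.87) and -0.17 for NFF against Control (adjusted p = 0.929, interval -0.73 to 0.39). In bulk samples, fewer cells of a type and less RNA per cell cannot be told apart, here and in every value below.

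H2-D1 was the most abundant heavy chain gene. Its levels were 558, 663, 508 and 383 RPKM in SFB 1 to 4, 349, 289, 342 and 404 RPKM in NFF 1 to 4, and 413, 367 and 362 RPKM in Control 2, 4 and 5. Again SFB 1, 2 and 3 exceeded every NFF and Control library and SFB 4 did not. The difference of SFB against NFF was 0.59 ± 0.19 (95% interval 0.18 to 1.00) and missed the threshold of an adjusted p under 0.05 (limma adjusted p = 0.0795). Without SFB 4 it was 0.74 and was called (limma adjusted p = 0.0292). Without SFB 2 it was 0.47 and was not called. Of 22 alternatives, 3 called it. Against Control the SFB difference was 0.45 ± 0.20 (limma adjusted p = 0.415), and that of NFF was -0.14 (limma adjusted p = 0.926).

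H2-K1, the other classical gene, had the same order of libraries within SFB at a lower level. It stood at 137, 158, 111 and 79.8 RPKM in SFB 1 to 4, at 81.9, 69.0, 82.3 and 92.5 RPKM in NFF 1 to 4, and at 114, 74.6 and 88.1 RPKM in Control 2, 4 and 5. Groups overlapped in all 3 comparisons. The difference was 0.53 ± 0.21 for SFB against NFF (limma adjusted p = 0.136, interval 0.08 to 0.99), which without SFB 4 became 0.72 and was called (limma adjusted p = 0.0349). Without SFB 2 it was 0.39 and was not called, and 2 of 22 alternatives called it. The difference was 0.37 for SFB against Control (limma adjusted p = 0.552) and -0.16 for NFF against Control (limma adjusted p = 0.923).

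**Figure D1:**
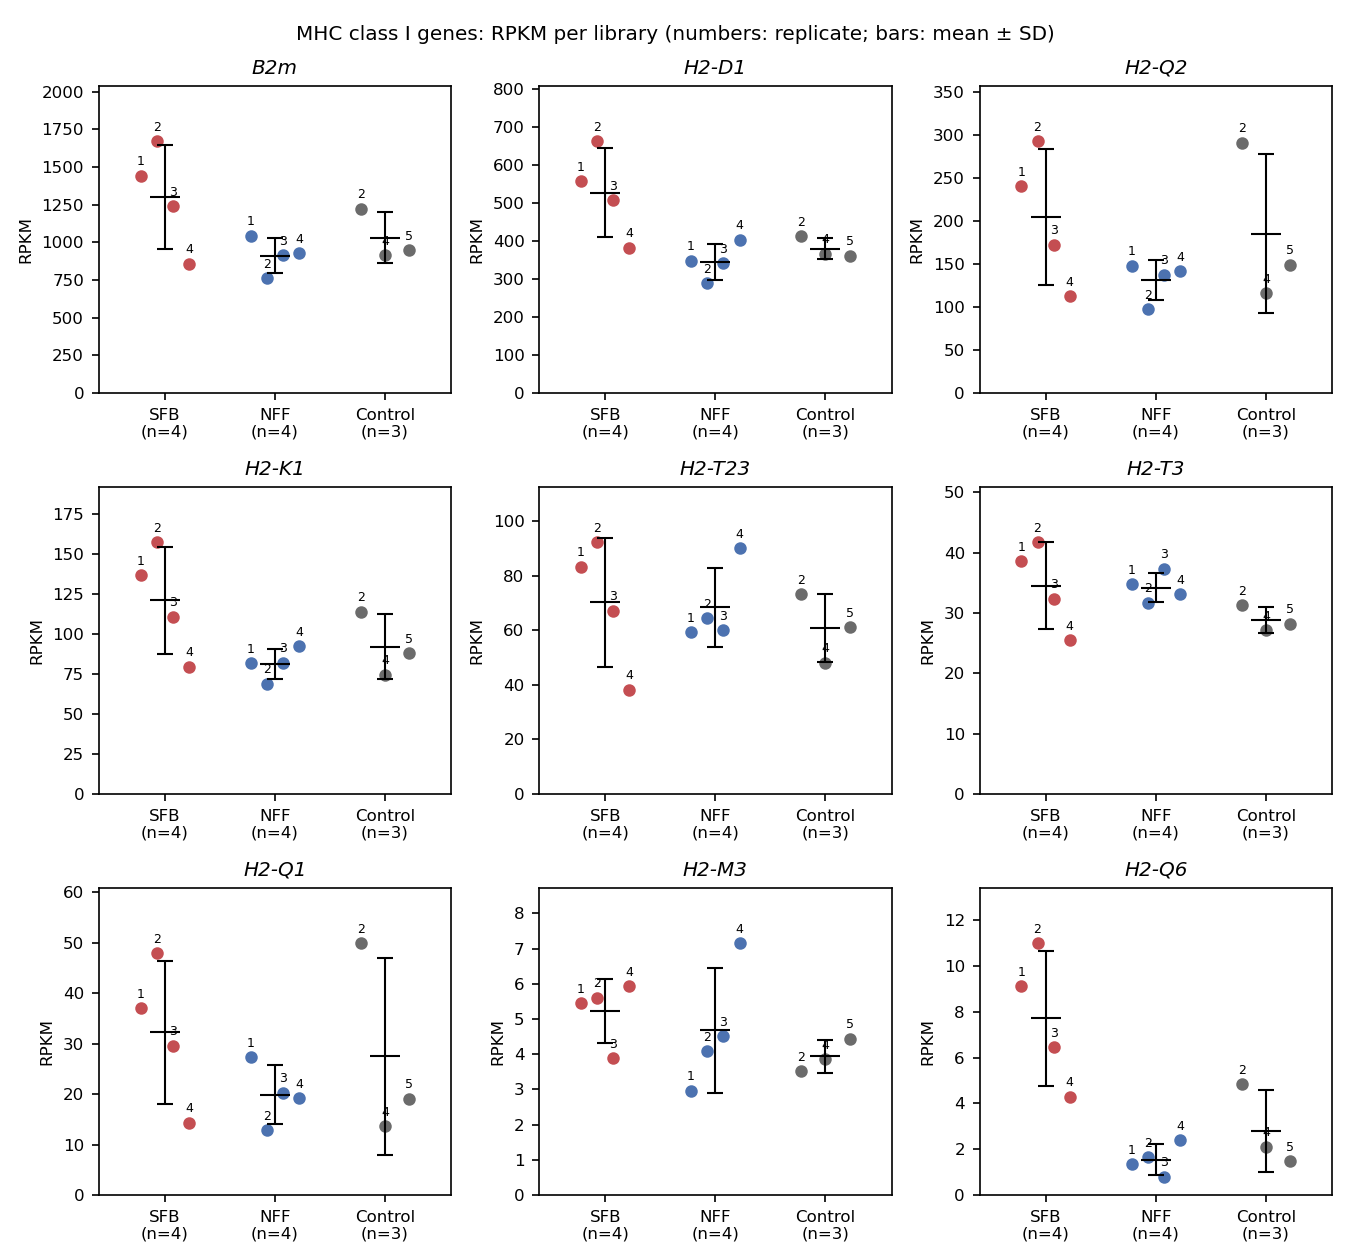
RPKM (y axis, from 0, linear) of the 9 class I genes in each library of SFB, NFF and Control, with replicate numbers beside the points and the mean ± SD as bars. H2-Q6 is the only one of the 9 whose 4 SFB points, from 4.30 to 11 RPKM, all lie above the 4 NFF points, from 0.794 to 2.39 RPKM.

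H2-Q6 was the gene that rose. It stood at 9.13, 11, 6.46 and 4.30 RPKM in SFB 1 to 4, at 1.33, 1.66, 0.794 and 2.39 RPKM in NFF 1 to 4, and at 4.84, 2.11 and 1.47 RPKM in Control 2, 4 and 5. The lowest SFB library was above the highest NFF library, and Control 2 was above SFB 4. Means were 7.72 ± 2.94 RPKM in SFB, 1.54 ± 0.668 in NFF and 2.81 ± 1.79 in Control (SD, n = 4, 4 and 3), so the SFB mean was 5.0 times the NFF mean.

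The log2 difference of H2-Q6 in SFB against NFF was 1.75 ± 0.31 (95% interval 1.07 to 2.43, limma adjusted p = 0.0078), and the two-sided exact permutation test gave p = 0.0286, the smallest that 4 libraries against 4 allow. The call held in 22 of 22 alternative settings, with log2 differences of 1.57 to 2.26. Against Control the SFB difference was 1.23 ± 0.33 (95% interval 0.50 to 1.96) and was not called (limma adjusted p = 0.161; exact permutation p = 0.0857), and NFF against Control gave -0.52 (limma adjusted p = 0.896). SFB against Control was called, at 1.65 with limma adjusted p = 0.0372, when SFB 4, SFB 2 and Control 2 were left out together. H2-Q6 has the largest share of words in common with its neighbours, so which of the near-identical Q genes gave the reads is uncertain.

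Neither of the other Q region genes passed the test in any comparison. H2-Q2 stood at 241, 293, 173 and 112 RPKM in SFB 1 to 4, at 148, 97.7, 138 and 142 RPKM in NFF 1 to 4, and at 291, 116 and 149 RPKM in Control 2, 4 and 5. H2-Q1 stood at 37.1, 48.0, 29.6 and 14.3 RPKM in SFB 1 to 4, at 27.3, 12.9, 20.3 and 19.2 RPKM in NFF 1 to 4, and at 49.9, 13.7 and 19.1 RPKM in Control 2, 4 and 5. For both genes Control 2 and SFB 2 were the highest libraries and the groups overlapped in every comparison. Control 2 lay far above the other Control libraries for both. It was also the library with the lowest mean distal and highest mean proximal marker level, though the proximal marker Slc40a1 was lowest in it. The part of gut position in these values was not tested. The differences of SFB against NFF were 0.56 for H2-Q2 (limma adjusted p = 0.301) and 0.59 for H2-Q1 (limma adjusted p = 0.389). SFB against Control gave 0.16 and 0.31, and both turned below 0 without Control 4 (-0.12 and -0.07).

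H2-T3, which encodes the thymus leukemia antigen, had nearly the same level in SFB and NFF. It stood at 38.6, 41.7, 32.4 and 25.5 RPKM in SFB 1 to 4, at 34.8, 31.7, 37.3 and 33.1 RPKM in NFF 1 to 4, and at 31.3, 27.2 and 28.3 RPKM in Control 2, 4 and 5. Every NFF library was above every Control library, and SFB overlapped both. The difference was -0.01 ± 0.14 for SFB against NFF (95% interval -0.32 to 0.31, limma adjusted p = 0.979). NFF against Control gave 0.24 ± 0.16 (95% interval -0.10 to 0.58, limma adjusted p = 0.896; exact permutation p = 0.0571), a separation of 1.18 times in mean RPKM that did not pass the test.

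H2-T23, the gene of Qa-1, stood at 83.3, 92.3, 67.3 and 38.2 RPKM in SFB 1 to 4, at 59.4, 64.4, 60.1 and 90.1 RPKM in NFF 1 to 4, and at 73.4, 48.1 and 61.1 RPKM in Control 2, 4 and 5. SFB held both the highest (SFB 2) and the lowest (SFB 4) of all 11 libraries, and the groups overlapped. The SFB against NFF difference was -0.02 (95% interval -0.57 to 0.54, limma adjusted p = 0.978), an interval that leaves differences of either sign unresolved. H2-M3, the presenter of formylated peptides, stood at 5.45, 5.61, 3.88 and 5.93 RPKM in SFB 1 to 4, at 2.96, 4.09, 4.50 and 7.15 RPKM in NFF 1 to 4, and at 3.51, 3.86 and 4.44 RPKM in Control 2, 4 and 5. It was the only one of the 9 for which SFB 4 was the highest SFB library, and its differences were 0.17 for SFB against NFF, 0.32 for SFB against Control and 0.16 for NFF against Control, none called (limma adjusted p = 0.626, 0.590 and 0.923).

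Counted together, 1 of the 9 genes rose in SFB against NFF, where 3.14% of all 10482 tested genes were called higher, 4.2% lower and 7.34% in either direction, and 0 of the 9 fell. An unadjusted p under 0.05 was reached by 3 of 9 (H2-Q6, H2-D1 and H2-K1), against 25.7% of all tested genes. Log2 differences were above 0 for 7 of 9, against 52.7% of all, and the median was 0.53 against 0.02 over all tested genes. Groups did not overlap for 1 of 9 (H2-Q6, SFB higher) against 20% of all. Without SFB 4, 3 of the 9 genes were called higher, H2-Q6, H2-D1 and H2-K1, and the median was 0.72. Without SFB 2, H2-Q6 alone was called and the median was 0.36. Over all tested genes, 769 were called with all libraries and 240 to 994 without single libraries. The counts without SFB 4 or SFB 2 are therefore a description only.

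In SFB against Control limma called 0 of the 9 genes, against 0.2% of all tested genes (0.124% higher and 0.0763% lower), and 1 of 9 (H2-Q6) had an unadjusted p under 0.05, against 12.1% of all. All 9 log2 differences were above 0, against 52.5% of all, with a median of 0.31 against 0.01 over all tested genes. Single libraries moved both values: without Control 4 only 6 of 9 were above 0 (H2-Q1, H2-Q2 and H2-T23 were below), without SFB 2 it was 7 of 9, and the median was 0.18 without SFB 2, 0.50 without SFB 4 and 0.51 without Control 2. For all 9 genes the groups overlapped here (0 of 9 separate, against 9.71% of all). SFB against Control and SFB against NFF share the SFB libraries, and SFB against Control and NFF against Control share the Control libraries.

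In NFF against Control 0 of the 9 genes were called by limma, as were 0 (0%) of all tested genes. None of the 9 reached an unadjusted p under 0.05, against 4.82% of all, and 3 of 9 (H2-T3, H2-T23 and H2-M3) were above 0, against 48.3% of all. Groups did not overlap for 1 of 9 (H2-T3, NFF higher), against 9.77% of all. The median was -0.17 against -0.01 over all tested genes, and it was -0.002 without Control 2, the library with the low distal markers.

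**Figure D2:**
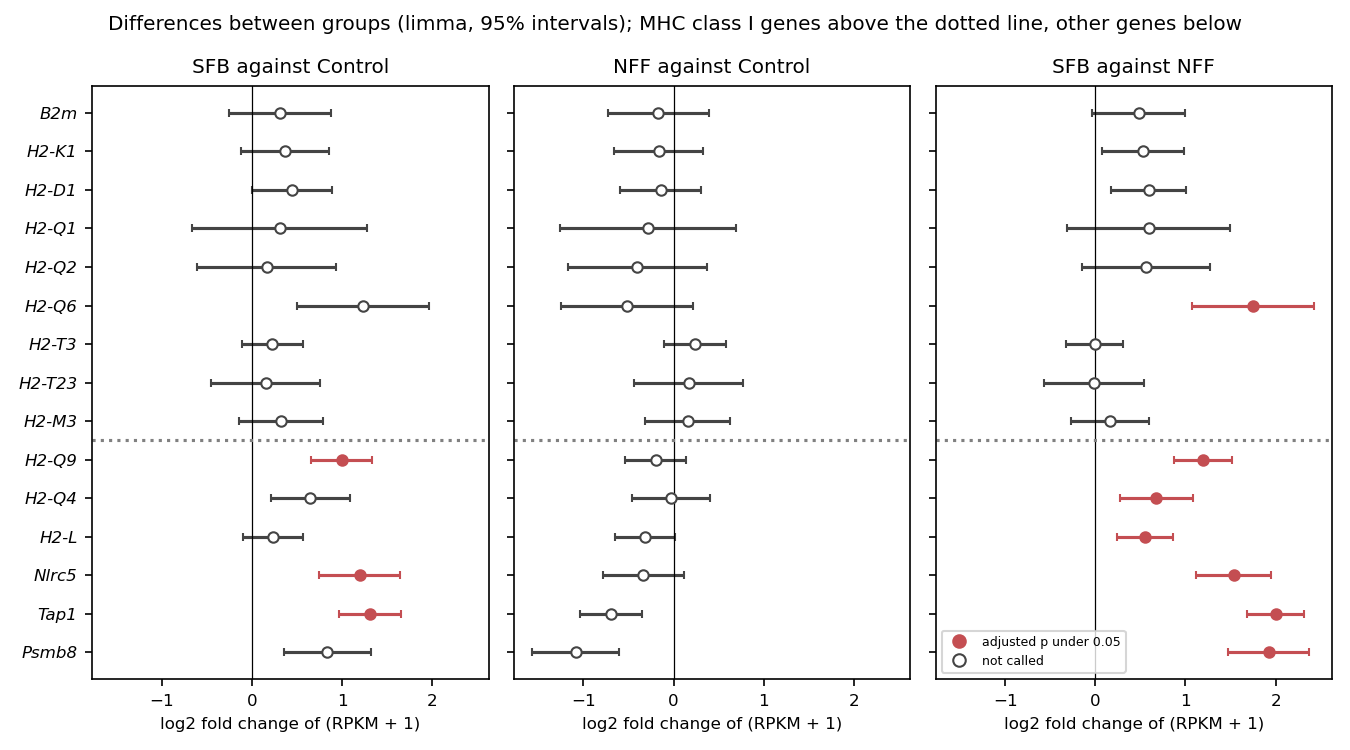
Log2 difference of RPKM + 1 (x axis) with its 95% interval for the 9 class I genes, above the dotted line, and 6 genes of the same pathway or family, below it, in SFB against Control, NFF against Control and SFB against NFF; filled points were called at an adjusted p under 0.05. H2-Q6 is the only filled point above the line (1.75 in SFB against NFF), and no point is filled in NFF against Control.

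The order of levels was nearly fixed across the groups. RPKM is per length, so genes were set beside each other, though reads moved between paralogs could shift their order. In SFB, NFF and Control alike the order by mean RPKM ran B2m, H2-D1, H2-Q2, H2-K1, H2-T23, H2-T3, H2-Q1. B2m and H2-D1 had ranges separate from their next neighbour in all 3 groups. In SFB the ranges of H2-Q2 and H2-K1, H2-K1 and H2-T23, H2-T23 and H2-T3, and H2-T3 and H2-Q1 overlapped. In NFF only H2-K1 and H2-T23 overlapped among these neighbours, and in Control only H2-T3 and H2-Q1. The last places differed: H2-Q6 was above H2-M3 in mean level in SFB (7.72 and 5.22 RPKM), with overlapping ranges, while in NFF H2-Q6 was below H2-M3 (1.54 and 4.68 RPKM) with separate ranges, and in Control it was also below (2.81 and 3.94 RPKM) with overlapping ranges.

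The make-up of the 8 heavy chain genes' transcripts was described by shares of their summed RPKM. Other class I-like genes were left out of the sum. Among those were Gm8909, Gm11127 and Gm7030, at means of 53.6, 27.55 and 23.59 RPKM over the 11 libraries. The shares, and the ratio of B2m to the sum, therefore hold for these 8 heavy chain genes only. The sum was 1000 ± 275 RPKM in SFB, 688 ± 90.7 in NFF and 782 ± 175 in Control (SD, n = 4, 4 and 3), and B2m was 1.3 ± 0.0245, 1.33 ± 0.123 and 1.33 ± 0.0751 times that sum in SFB, NFF and Control. The classical genes made up 65.3 ± 3.43% in SFB, 62.2 ± 0.819% in NFF and 61.5 ± 7.09% in Control. The T and M region genes made up 10.5 to 11.5% in SFB, 13.8 to 17.6% in NFF and 11 to 13.1% in Control, so that the NFF libraries lay above all others. Control 2 stood apart with 35.3% from the Q region, against 19.7 to 26.8% in the other 10 libraries.

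**Figure D3:**
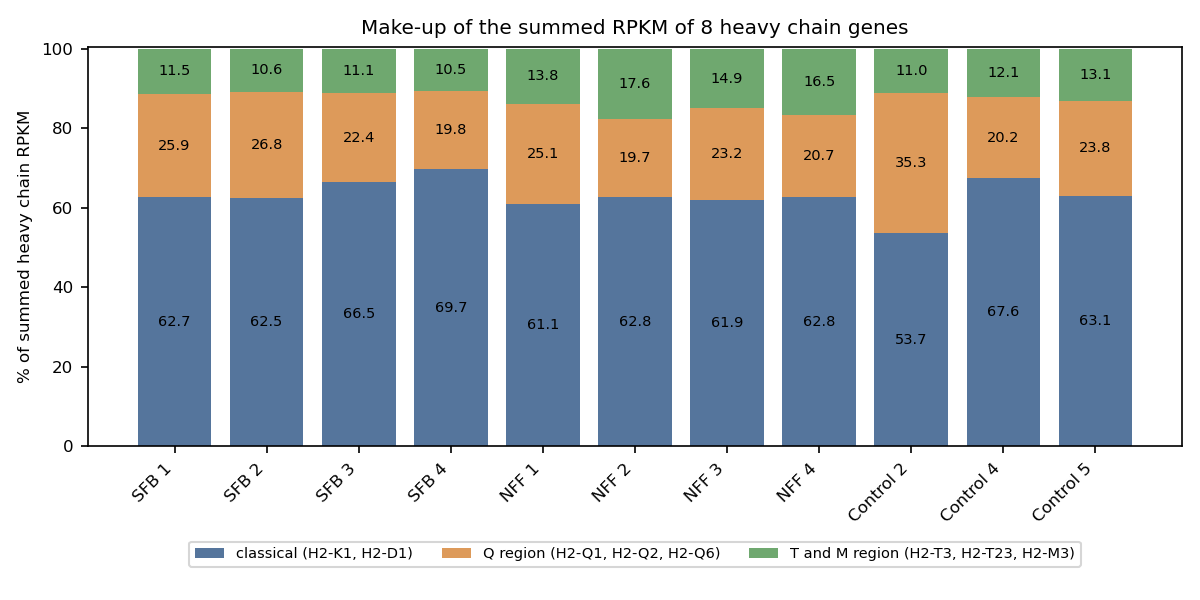
Percent of the summed RPKM of the 8 heavy chain genes (y axis, from 0) that came from classical, Q region and T and M region genes, with 1 bar per library of SFB, NFF and Control. The T and M share is 13.8 to 17.6% in the 4 NFF libraries and 10.5 to 13.1% in the other 7, and Control 2 has the largest Q region share, 35.3%.

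Each heavy chain was also set against B2m, its light chain partner, within each library. H2-K1 and H2-D1 kept a similar ratio to B2m in the 3 groups, while the ratios of H2-Q6 and H2-T3 separated some groups without passing the adjusted test. These ratios were chosen after the data were seen, and 24 were tested by two-sided exact permutation with Benjamini-Hochberg adjustment. The log2 ratio of H2-K1 to B2m was -3.43 ± 0.037 in SFB, -3.49 ± 0.14 in NFF and -3.49 ± 0.11 in Control (SD, n = 4, 4 and 3), the tightest of the 8 within SFB. That of H2-T3 was -5.22, -5.32, -5.26 and -5.08 in SFB 1 to 4, -4.91, -4.59, -4.62 and -4.81 in NFF 1 to 4, and -5.29, -5.08 and -5.07 in Control 2, 4 and 5. All NFF ratios of H2-T3 were above all SFB and Control ratios. Its mean difference was -0.49 for SFB against NFF and 0.41 for NFF against Control, each with exact permutation p = 0.0286 and an adjusted p of 0.171, and all 4 NFF libraries showed it.

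For H2-Q6 the log2 ratio to B2m was -7.30, -7.25, -7.58 and -7.64 in SFB 1 to 4, -9.61, -8.85, -10.2 and -8.60 in NFF 1 to 4, and -7.98, -8.76 and -9.33 in Control 2, 4 and 5. All 4 SFB ratios were above all NFF and all Control ratios, Control 2 included. The difference was 1.86 for SFB against NFF and 1.25 for SFB against Control (exact permutation p = 0.0286 each, adjusted p = 0.171 each). For H2-T23 the SFB against NFF difference was -0.50 (exact permutation p = 0.0571, adjusted p = 0.274). None of the 24 ratios passed the adjustment, and 0.0286 is the smallest p that these group sizes allow.

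**Figure D4:**
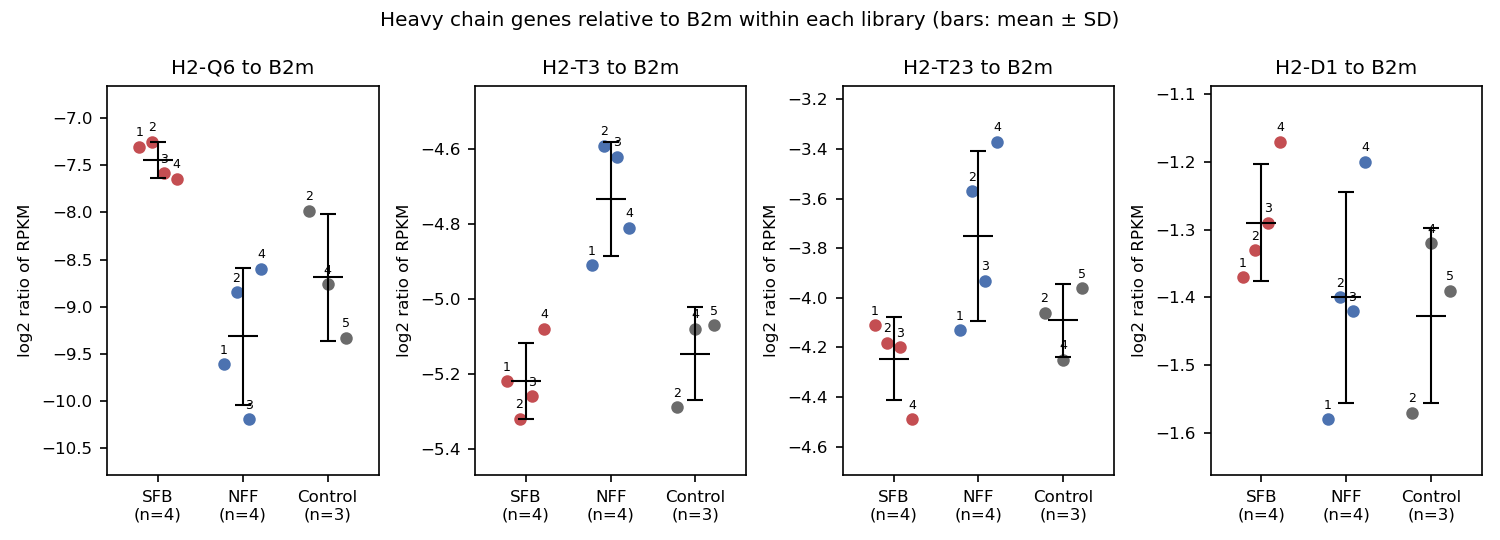
Log2 ratio of RPKM to that of B2m in the same library (y axis, not from 0) for H2-Q6, H2-T3, H2-T23 and H2-D1 in SFB, NFF and Control, with replicate numbers and the mean ± SD. The SFB ratios of H2-Q6 (-7.64 to -7.25) lie above all others, and the NFF ratios of H2-T3 (-4.91 to -4.59) lie above all others.

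Within groups the genes moved by library. SFB 2 was the highest SFB library for 8 of 9 genes and SFB 4 the lowest for 8 of 9, H2-M3 being the exception for both. Control 2 was the highest Control library for 8 of 9 and the lowest for H2-M3, and NFF 2 was the lowest NFF library for 6 of 9. The mean log2 level of the 9 genes was 6.40, 6.61, 6.09 and 5.63 in SFB 1 to 4, 5.69, 5.46, 5.63 and 5.88 in NFF 1 to 4, and 6.18, 5.52 and 5.67 in Control 2, 4 and 5. SFB 4, with the lowest mean level in SFB, had the highest dividing-cell markers of the 11 libraries, and their part in its class I level was not tested.

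**Figure D5:**
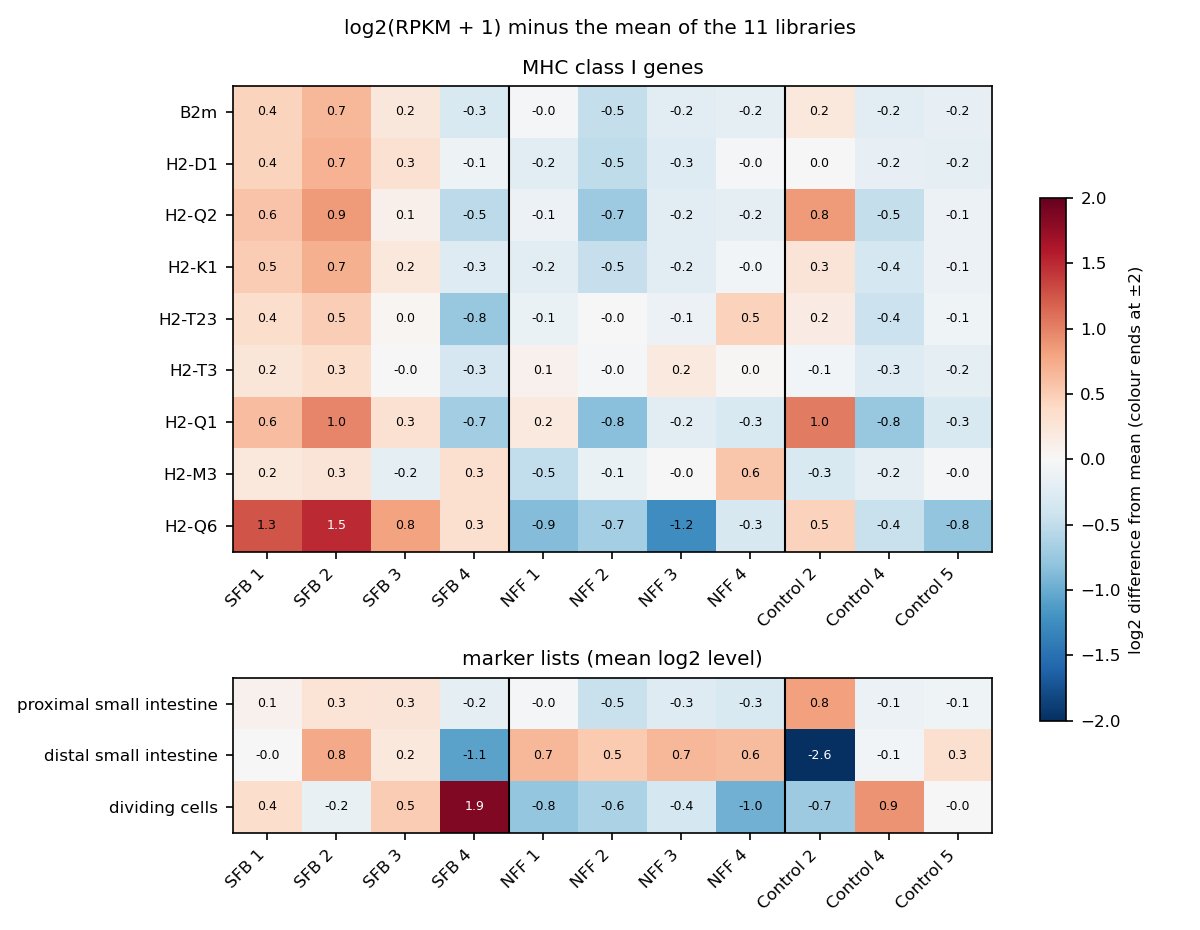
Log2(RPKM + 1) of the 9 class I genes (top) and mean log2 level of 3 marker lists (bottom), each minus its mean over the 11 libraries, as colour and number, with libraries of SFB, NFF and Control from left to right. SFB 1 and 2 are above the mean for all 9 genes; Control 2 stands out in the distal and proximal lists and SFB 4 in the dividing-cell list.

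Across the 11 libraries, which share their groups and any library effects, pairs of genes were described by Pearson's r of log2(RPKM + 1). B2m had r = 0.967 with H2-K1 and 0.931 with H2-D1, and H2-Q1 had r = 0.974 with H2-Q2, a pair that shares 12.9% of the 50-base words of H2-Q2. H2-T3 and H2-T23 had r = 0.766 with each other and 0.658 and 0.624 with B2m. H2-M3 had r = 0.0705 with B2m. Outside the class I genes, the 5 whose levels were most like the mean of the 9 were Xaf1 (r = 0.957), Mob3c (0.939), D5Ertd579e (0.931), Ube2l6 (0.931) and Slco2a1 (0.930). The likest to B2m were Herc6 (0.976) and Ifit1 (0.968), to H2-D1 Upp1 (0.959) and Zbp1 (0.953), to H2-Q2 Ube2l6 (0.981) and Gda (0.966), to H2-Q6 Nudt5 (0.952) and Zbp1 (0.950), and to H2-T3 Unc93a (0.942) and Mep1b (0.925). With 11 libraries and 10482 genes, high values of r are to be had for any profile, and they are given as a description only.

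Other class I-like genes were counted from a list of 34, of which 14 were in the table and tested. In SFB against NFF 3 rose and 0 fell, against 3.14% of all tested genes called higher and 4.2% lower. In SFB against Control 1 rose and 0 fell, against 0.124% called higher and 0.0763% lower. In NFF against Control limma called 0, against 0% of all, and 0 had an unadjusted p under 0.05, against 4.82% of all. Their median log2 differences were 0.04, 0.16 and -0.04 in these comparisons. H2-Q9, a further Qa-2 gene, stood at 1.88, 2.38, 1.26 and 1.31 RPKM in SFB 1 to 4, at 0.240, 0.0810, 0.132 and 0.219 RPKM in NFF 1 to 4, and at 0.464, 0.305 and 0.257 RPKM in Control 2, 4 and 5. All 4 SFB libraries were above all others, while all were low. Only SFB libraries reached 1 RPKM, so H2-Q9 passed the filter through the group where it was high. Its calls, here and in the counts above, are therefore a description only. H2-Q9 rose by 1.19 in SFB against NFF (limma adjusted p = 0.0014) and by 1.00 in SFB against Control (limma adjusted p = 0.0295), and the second call was lost in 12 alternatives, among them leaving out SFB 2, any 1 of NFF 1 to 3 or any 1 Control library (adjusted p up to 0.349 over all 12). H2-Q4 stood at 3.24, 3.14, 3.26 and 1.91 RPKM in SFB 1 to 4, 1.49, 1.49, 1.09 and 1.56 RPKM in NFF 1 to 4, and 2.38, 1.23 and 0.954 RPKM in Control 2, 4 and 5, and rose by 0.68 in SFB against NFF (limma adjusted p = 0.0477). H2-L, a classical gene that some mouse strains lack, rose by 0.55 in SFB against NFF (limma adjusted p = 0.0377). The H2-Q4 call was lost when any 1 of SFB 1 to 3, NFF 1 to 4 or Control 4 was left out (adjusted p of 0.0529 to 0.116), and the H2-L call when any 1 of SFB 1, SFB 3, SFB 4, NFF 1 to 4 or Control 5 was left out (adjusted p of 0.0517 to 0.0912). H2-Q9 and H2-L could not be placed in the annotation used here, and both have close paralogs. Their reads could belong to those paralogs, so their calls may not be separate from those of other class I genes.

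Of 13 listed genes that supply and load the peptides of class I molecules, 7 rose and 0 fell in SFB against NFF, where 3.14% of all tested genes were called higher and 4.2% lower, and 6 did not pass the test. Only 4 were called without SFB 1, without SFB 2 or without any 1 NFF library. All 13 log2 differences were above 0, against 52.7% of all, with a median of 0.51, and 11 had groups that did not overlap, against 20% of all. In SFB against Control 1 of 13 rose, Tap1, against 0.124% of all called higher, and the median was 0.38. An unadjusted p under 0.05 was reached there by 7 of 13, against 12.1% of all. All 13 log2 differences were above 0 there too, against 52.5% of all. In NFF against Control limma called 0, against 0% of all, and the median was -0.25. There 4 of 13 had an unadjusted p under 0.05, against 4.82% of all. Tap1, a subunit of the transporter that carries peptides to class I molecules, stood at 26.3, 29.4, 21.3 and 23.9 RPKM in SFB 1 to 4, at 6.93, 4.29, 6.22 and 4.95 RPKM in NFF 1 to 4, and at 10.4, 9.41 and 8.88 RPKM in Control 2, 4 and 5. The 3 groups did not overlap, with SFB highest and NFF lowest. Tap1 rose by 2.00 ± 0.14 in SFB against NFF (limma adjusted p = 6.96e-05), and NFF against Control gave -0.69, not called (limma adjusted p = 0.526). It rose by 1.31 in SFB against Control (limma adjusted p = 0.0058). That call was lost with only the 2 groups and with a block for replicate number (limma adjusted p = 0.0632 and 0.229).

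Psmb8 and Psmb9 encode catalytic subunits of the immunoproteasome, which cuts peptides for class I molecules. Psmb8 stood at 73.8, 81.1, 55.0 and 68.8 RPKM in SFB 1 to 4, at 18.7, 11.2, 21.4 and 20.5 RPKM in NFF 1 to 4, and at 46.3, 39.2 and 30.6 RPKM in Control 2, 4 and 5. Here too the 3 groups were separate. Psmb8 rose by 1.92 and Psmb9 by 1.71 in SFB against NFF (limma adjusted p = 7.62e-04 and 0.0012), while in SFB against Control they gave 0.84 each and were not called (limma adjusted p = 0.150 and 0.143). Tap2, the partner of Tap1, rose by 0.67 in SFB against NFF (limma adjusted p = 0.0433), a call lost when any 1 of SFB 1 to 3, NFF 1 to 4 or Control 5 was left out (adjusted p of 0.0578 to 0.120). Psmb9 and Tap1 overlap at their starts on opposite strands, and the kits do not mark strand, so reads there could not be told apart.

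Among 25 listed genes of class I transcription control, 23 were tested, and 4 rose and 1 fell in SFB against NFF, against 3.14% of all tested genes called higher and 4.2% lower, with a median log2 difference of -0.01. In SFB against Control 2 rose, Nlrc5 among them, and 0 fell (0 to 3 called when single libraries were left out), against 0.124% of all called higher. In NFF against Control limma called 0, against 0% of all, and 2 of 23 had an unadjusted p under 0.05, against 4.82% of all. Nlrc5, the class I transactivator, stood at 3.65, 3.30, 4.50 and 1.75 RPKM in SFB 1 to 4, at 0.447, 0.384, 0.480 and 0.449 RPKM in NFF 1 to 4, and at 1.16, 0.616 and 0.727 RPKM in Control 2, 4 and 5. Outside SFB it reached 1 RPKM only in Control 2. Nlrc5 thus passed the filter through the group where it was high, and its calls are a description only. Its 3 groups did not overlap, and it rose by 1.53 in SFB against NFF (limma adjusted p = 0.0017). In SFB against Control it rose by 1.20 (limma adjusted p = 0.0466), a call lost in 15 alternatives, among them leaving out any 1 library but SFB 4 (adjusted p of 0.0526 to 0.379 over the 15). Irf1, an interferon-induced transcription factor, rose by 0.81 in SFB against NFF (limma adjusted p = 0.0017) and Socs1, an inhibitor of the pathway, by 1.10 (limma adjusted p = 0.0030). Il10rb, a receptor chain shared by IL-10, IL-22 and type III interferon, fell by 0.40 (limma adjusted p = 0.0371).

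The class I genes differed in how their levels tracked these genes over the 11 libraries. Pearson's r with Nlrc5 was 0.906 for H2-Q6, 0.868 for H2-D1, 0.785 for H2-K1 and 0.774 for B2m, and 0.593 for H2-Q2 and 0.579 for H2-Q1. It was 0.313 for H2-T3, 0.272 for H2-T23 and 0.211 for H2-M3. The same 3 genes had the lowest r with Tap1 (0.164, 0.0420 and 0.257 in the same order). These values are a description over libraries that differ in group, and carry no p.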

How the data were processed

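The authors deposited 1 table of RPKM values per gene and library, reads scaled by gene length and library total, per the file headers. Per the labels' protocols, RNA of sorted cells was made into cDNA with the SMART-seq v4 kit and into libraries with NexteraXT; neither marks strand or adds molecular identifiers. Reads were aligned with STAR to mm10, per the submitters' processing notes. How reads were counted, with which annotation, and what became of reads that fit several genes is not given in the sources used here. In the best case 31.1 to 61.1% of a library's values under 0.3 RPKM lay within 0.1 of a whole multiple of 1 step, so reads were not recovered, depth is unknown and no counting interval is given.

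Here 15 symbols turned into dates by a spreadsheet were restored through Entrez identifiers, of which 11360 matched RefSeq. Values were analysed as log2(RPKM + 1), with a pseudocount of 1, which understates changes of genes near 1 RPKM. Genes with at least 1 RPKM in at least 3 libraries were tested, 10482 in all (884 left out); all 9 class I genes passed. limma 3.58.1 in R 4.3.3 fitted 1 mean per group to all 11 libraries (8 residual degrees of freedom), with a trended eBayes and Benjamini-Hochberg adjustment over all tested genes, and a gene was called at an adjusted p under 0.05. Single genes and ratios were also tested by two-sided exact permutation in Python 3.11.15. The script was tested on simulated data.

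The class I genes and the lists were chosen with earlier results of these data known. Genes named were all class I genes found, Nlrc5, Tap1, Psmb8, Psmb9, Irf1, Epcam and Ptprc, up to 4 called genes of each list and comparison (or 2 of lowest p where none was called), and genes by correlation; others were named after their values were seen. One gene is not reported here. Alternatives were pseudocounts of 0.1 and 0.5, no filter and a filter at 3 RPKM, median-of-ratios scaling, quantile normalization, eBayes without trend and robust, a fit of 2 groups alone, a block for replicate number, leaving out each library, and leaving out SFB 4, SFB 2 and Control 2 together; ratios to B2m were added after the data were seen.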

Additional observations from a re-analysis of the deposited data

Results flagged for a closer look

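H2-T23 was flagged in NFF because 1 library stood apart. NFF 4 was at 90.1 RPKM, against 59.4, 60.1 and 64.4 RPKM in NFF 1, 3 and 2, and its gap to the nearest library made up 0.837 of the range of the group, above the 95% critical value of Dixon's test. Of 18 sets of 4 libraries examined (9 genes in SFB and in NFF) this was the only one past that value, and chance flags about 1 in 20. NFF 4 was also the highest NFF library for 5 of the 9 class I genes, among them H2-M3 at 7.15 RPKM. Without NFF 4 the log2 difference of H2-T23 in SFB against NFF was 0.12 (limma adjusted p = 0.844), against -0.02 with it, and neither was called.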

How the results depend on the processing

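Over 1685 recomputed values of single genes and ratios, 1588 kept their side of the threshold and 0 called values turned sign. A call was lost by 85 and gained by 12, where a ratio counted as called at an exact permutation p under 0.05. Ratios against Control could not reach that p without a library of either group, nor any ratio without SFB 4, SFB 2 and Control 2 together. The smallest exact permutation p possible there was 0.0667 or 0.1, and 0.333 for SFB against Control without the 3 libraries. Losses and unchanged ratios in those settings therefore say nothing. Among uncalled values, H2-T3 in SFB against NFF turned sign in 6 of 22 alternatives. H2-Q6 in SFB against NFF was called in all 22 alternatives (limma adjusted p of 0.0033 to 0.0288). The filter at 3 RPKM left H2-Q9, whose highest value was 2.38 RPKM, untested, so its call could not be kept there. The cause of the other changes below was not tested. In SFB against NFF the 769 called genes became 1173 with quantile normalization, and 240 to 994 without single libraries. The class I genes called, 1 of 9, became 3 with quantile normalization (adding B2m at 0.84 and H2-D1 at 0.83). They became 3 without SFB 4, SFB 2 and Control 2 together, and 1 to 3 without single libraries. The total over all tested genes without these 3 libraries is not given, so that count is a description only. Other class I-like genes, 3, became 1 with the filter at 3 RPKM and 1 to 3 without single libraries. Peptide supply genes, 7, became 4 to 8. In SFB against Control the 21 called genes became 1 with only the 2 groups, 95 without the 3 libraries, and 7 (without SFB 2) to 94 (without SFB 4) without single libraries. There the class I genes called, 0, became 1 without the 3 libraries. Other class I-like genes, 1, became 0 with a pseudocount of 0.1, the filter at 3 RPKM, median-of-ratios scaling, quantile normalization or only the 2 groups, 2 without the 3 libraries, and 0 to 1 without single libraries. Peptide supply genes, 1, became 0 with only the 2 groups. Transcription control genes, 2, became 1 with a pseudocount of 0.1, the filter at 3 RPKM or median-of-ratios scaling, 0 with only the 2 groups, and 0 to 3 without single libraries. In NFF against Control the 0 called genes became 1 with only the 2 groups, 22 without the 3 libraries, and 0 to 8 without single libraries. The scalings moved the median of all genes by under 0.1.

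The labels do not say that a replicate number pairs libraries. Deviations of same-numbered libraries from their group means correlated positively in SFB and Control, at r of 0.201 for replicate 2 and 0.668 for replicate 4, which is too few pairs to settle a pairing, and at -0.173 and -0.277 in NFF and Control and -0.301 to 0.028 in SFB and NFF. SFB 4 and Control 4 were each other's best partner, while SFB 2 correlated best with Control 2 and Control 2 with SFB 1. With the replicate number as a block, SFB against NFF called 335 genes, 1 class I gene, 1 other class I-like gene and 4 peptide supply genes, and SFB against Control called 0 genes, 0 other class I-like, 0 peptide supply and 0 transcription control genes.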
